A study of Mus musculus with 9 samples.

Results

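Foxp1, Foxp2, Foxp4, Bcl11a, Bcl11b, Isl1, Meis1, Meis2 and Pbx3, 9 transcription factor genes of the developing striatum, were followed by RNA-seq in the striatum of 9 mouse embryos taken at E17.5. They were chosen by name from 3 families of regulators of striatal projection neurons (SPN) together with the LIM-homeodomain gene Isl1, and each symbol matched 1 Ensembl gene among the 44886 genes counted. The choice was made with earlier results of these data known. All 9 passed the filter on low counts, which kept 16368 genes. By the labels each library is of 1 embryo, and 3 embryos were labelled Control, 3 Islet1Cre;Ebf1fl/- and 3 Dlx5/6::Cre;Ebf1fl/-. The comparison asked how the levels of these factors differ when Ebf1, a transcription factor of direct pathway SPN (dSPN), is conditionally inactivated.

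The labels give the strain as C57BL/6, whereas the methods of the study keep the Islet1Cre line on B6D2F1/J. Mutants came from males with a Cre and a null Ebf1 allele and from females homozygous for Ebf1fl, so that every embryo of this cross carried a floxed copy. Heterozygous embryos served as controls by the same methods, and the labels do not give the genotype of each. The study places recombination by Islet1Cre in dSPN and cholinergic interneurons, and that by Dlx5/6::Cre more broadly, in SPN of both pathways and in interneurons. Islet1Cre is written as an allele of Islet1, the locus of Isl1, one of the 9 genes examined. The RNA is of whole striatal tissue, in which fewer cells of a type and less RNA per cell cannot be told apart.

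Foxp proteins are forkhead factors that bind DNA as dimers with each other and mostly repress transcription. Foxp1 is made by SPN of both pathways, while high levels of Foxp2 mark dSPN in the embryo. Bcl11a (Ctip1) and Bcl11b (Ctip2) are zinc finger proteins first described as partners of COUP-TF nuclear receptors, and Bcl11b is required for SPN to mature. Isl1 directs the differentiation of dSPN and of cholinergic interneurons. Meis and Pbx proteins are TALE homeodomain factors that bind DNA together, and Meis2 is a marker of the lateral ganglionic eminence, where SPN are born.

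The sequences ahead of transcription start sites are shown for Foxp1, whose values were lower in every mutant embryo, and for Meis1 and Meis2, whose means were higher in both mutants. They are the 250 bases before the start in RefSeq on GRCm38.p6, the build of the counts, written 5′ to 3′ on the strand of the gene, which is the minus strand for all 3. In capitals is the match to the MEIS hexamer TGACAG, here as its reverse complement. Foxp1 has 3 starts in this table, of which 2 are shown.
Foxp1, chr6:99520994-99521243: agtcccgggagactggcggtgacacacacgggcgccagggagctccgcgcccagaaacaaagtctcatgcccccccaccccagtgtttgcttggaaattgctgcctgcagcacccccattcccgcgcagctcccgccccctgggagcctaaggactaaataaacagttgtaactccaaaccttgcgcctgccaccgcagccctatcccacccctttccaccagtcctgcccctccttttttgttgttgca
Foxp1, chr6:99266516-99266765: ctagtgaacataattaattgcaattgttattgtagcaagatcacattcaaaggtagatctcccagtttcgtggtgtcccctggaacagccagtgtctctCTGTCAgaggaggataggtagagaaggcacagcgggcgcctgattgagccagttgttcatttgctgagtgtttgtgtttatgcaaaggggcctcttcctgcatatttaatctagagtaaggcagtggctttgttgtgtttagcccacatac
Meis1, chr11:19018970-19019219: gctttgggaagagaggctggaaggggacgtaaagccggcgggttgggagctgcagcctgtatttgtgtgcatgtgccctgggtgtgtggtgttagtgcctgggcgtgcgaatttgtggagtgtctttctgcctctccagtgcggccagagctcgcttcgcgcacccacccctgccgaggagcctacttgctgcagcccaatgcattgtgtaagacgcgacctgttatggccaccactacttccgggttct
Meis2, chr2:116064620-116064869: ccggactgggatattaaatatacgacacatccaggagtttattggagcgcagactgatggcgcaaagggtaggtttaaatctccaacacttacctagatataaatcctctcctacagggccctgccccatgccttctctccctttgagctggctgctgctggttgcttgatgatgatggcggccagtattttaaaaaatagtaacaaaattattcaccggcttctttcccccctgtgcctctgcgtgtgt
RefSeq windows were found for 7 members, 9 windows in all, with none for Foxp2 and Pbx3. Both strands were searched for the palindromic EBF motif (TCCC and GGGA parted by any 2 bases), the forkhead motif TGTTTAC, the MEIS hexamer and the joint PBX-MEIS motif (TGAT, any base, then GACAG, which shares its last letters with the MEIS hexamer). The EBF motif was in 0 of the 9 windows, against 0.779% of 32851 windows of all genes. Forkhead and PBX-MEIS motifs were likewise in 0 of 9, against 3.17% and 0.368% of all windows. The MEIS hexamer was in 1 of 9, the second Foxp1 window shown, against 15.9%.

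Counts on genes totalled 16548083 to 41507049 per embryo. Values are given as normalised read counts, that is, counts divided by the size factor of the library, in the order of replicates 1, 2 and 3. Ebf1 was at 7945, 14208 and 9697 in the controls, at 15343, 13866 and 13210.0 in the embryos labelled Islet1Cre;Ebf1fl/-, and at 11774, 13079 and 15312 in the embryos labelled Dlx5/6::Cre;Ebf1fl/-. These counts, summed over the gene, were not lower in either mutant. Reads of a deleted and of an intact stretch are added up in them, so they leave the deletion itself unchecked. By the labels each embryo was genotyped by PCR, and every direction that follows rests on those labels. The codes of 2 controls and of all Islet1Cre;Ebf1fl/- embryos begin with IE, those of control 3 and of all Dlx5/6::Cre;Ebf1fl/- embryos with D, and what the prefix stands for is not given in the sources used here. The library labelled Dlx5/6::Cre;Ebf1fl/- replicate 1 stood apart, with a median correlation of 0.971 with the other 8 against 0.981 to 0.986 for each of these. Its 6 progenitor markers summed to 14510.0 normalised counts against 3285 to 4757 elsewhere. The library labelled Islet1Cre;Ebf1fl/- replicate 3 held both Xist, at 7270.0 normalised counts, and Y-linked transcripts of 4 genes, at 2450.0 in sum. Control 3 also held both, at 12070.0 and 295.3, while the other 7 libraries had 3.62 or less of the lower of the 2 values. Xist is made in females and Y-linked genes in males, while the labels give 1 embryo for each of these 2 libraries. Whether they hold RNA of more than 1 embryo, or reads from elsewhere, was not tested. With all libraries 0 members were called in the Islet1Cre;Ebf1fl/- comparison and 1, Foxp1, in the Dlx5/6::Cre;Ebf1fl/- comparison, beside 0.971% and 2.39% of all genes. Without the Islet1Cre;Ebf1fl/- replicate 3 library 0 were called in both, and without control 3 the calls were 0 in the Islet1Cre;Ebf1fl/- comparison and 1, Pbx3, in the Dlx5/6::Cre;Ebf1fl/- comparison. Sex was also not balanced between the groups. Control 2 had 3.27 Xist and 3800.0 Y-linked counts, whereas each Dlx5/6::Cre;Ebf1fl/- library had 0.815 Y-linked counts or less. The part of sex in the results was not tested.

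**Figure D1:**
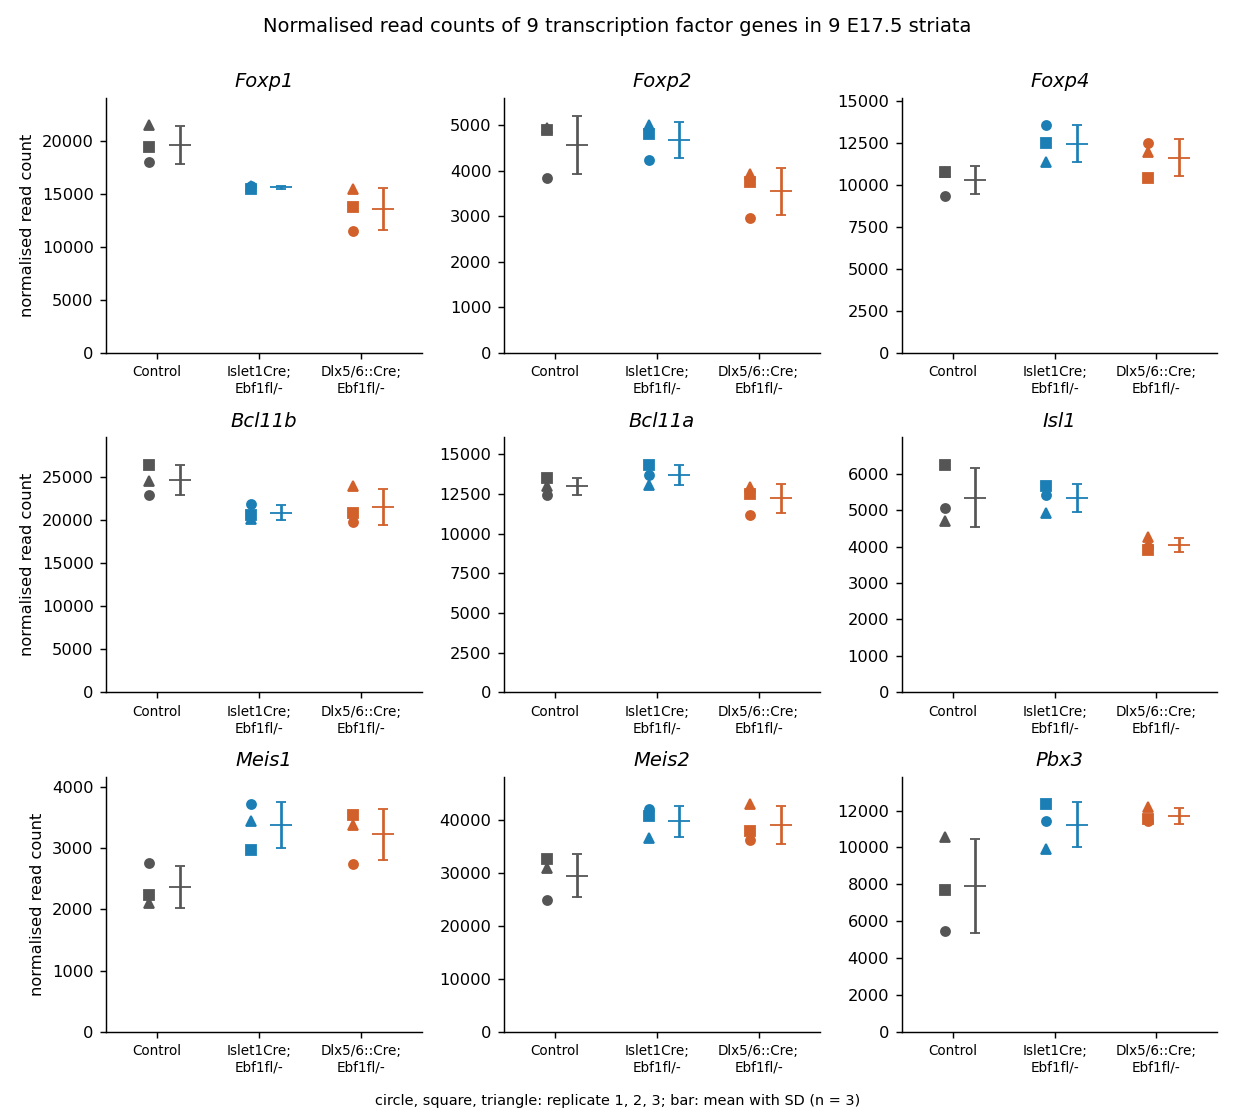
Normalised read counts of the 9 genes in each of 9 striata at E17.5 (vertical axis, from 0) for embryos labelled Control, Islet1Cre;Ebf1fl/- and Dlx5/6::Cre;Ebf1fl/-. Circles, squares and triangles are replicates 1, 2 and 3, and bars are the mean with its SD (n = 3). Every mutant value lies below the controls for Foxp1 and above them for Meis2.

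Striatal identity was present in every library. Of 17 SPN markers none was at 0, and their sum was 76920.0 to 90360.0 in controls, 76880.0 to 81150.0 in the Islet1Cre;Ebf1fl/- libraries and 64530.0 to 80460.0 in the Dlx5/6::Cre;Ebf1fl/- libraries. The lowest sum was that of the Dlx5/6::Cre;Ebf1fl/- replicate 1 library. Ikzf1, a zinc finger factor of SPN, was lower in both mutants, with log2 fold changes of -1.12 (adjusted p = 0.0229) and -1.11 (adjusted p = 0.0122). Pde10a, the SPN phosphodiesterase, fell in the Dlx5/6::Cre;Ebf1fl/- comparison by 0.71 on the log2 scale (adjusted p = 0.0206). In the Islet1Cre;Ebf1fl/- comparison Pde10a was at -0.44 (adjusted p = 0.243). Its direct difference between the mutants was -0.28 (adjusted p = 0.868). Thus 1 and 2 of the 17 markers were called in the respective comparisons, against 0.971% and 2.39% of all genes tested, and 0 markers were called higher. The median log2 fold change over the 17 markers was nonetheless 0.06 and 0.15, above those over all genes. Drd1, the dopamine receptor of dSPN, had values of 0.67 (adjusted p = 0.346) and 0.53 (adjusted p = 0.293). Tac1, the gene of the dSPN peptide Substance P, went the other way, at -0.53 (adjusted p = 0.761) and -1.12 (adjusted p = 0.0776). Both were picked as dSPN genes, and neither was called. Other uncalled markers also went either way. In the Dlx5/6::Cre;Ebf1fl/- comparison Zfp503 was at 0.39 (adjusted p = 0.176, edgeR) and Rarb at -0.50 (adjusted p = 0.177, edgeR). The 8 markers of cortical excitatory neurons, of which none was at 0, summed to 1081 to 2565 in controls, 1019 to 1954 in the Islet1Cre;Ebf1fl/- libraries and 2690.0 to 6362 in the Dlx5/6::Cre;Ebf1fl/- libraries. In the Dlx5/6::Cre;Ebf1fl/- comparison 5 of these 8 had an unadjusted p below 0.05, against 15.5% of all genes, and 0 were called. All Dlx5/6::Cre;Ebf1fl/- embryos thus exceeded every other embryo in this sum. The 4 markers of pallidal and MGE interneurons, none at 0, summed to 9606 to 10790.0 in controls, 8926 to 10610.0 in the Islet1Cre;Ebf1fl/- libraries and 5468 to 9225 in the Dlx5/6::Cre;Ebf1fl/- libraries, with 0 called. An unadjusted p below 0.05 in the Dlx5/6::Cre;Ebf1fl/- comparison was also found for 2 of these 4 and for 7 of the 17 SPN markers. The part of these markers in the results that follow was not tested.

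Levels were compared between genes per kb of merged exons. In controls the order was Bcl11b at 3040.0 ± 217 (SD, n = 3) normalised counts per kb, Meis2 at 2442 ± 337, Foxp4 at 2091 ± 169, Foxp1 at 1427 ± 129, Isl1 at 1349 ± 203, Pbx3 at 1296 ± 418, Bcl11a at 985.4 ± 40.4, Foxp2 at 279 ± 38.7 and Meis1 at 224 ± 32.6. Neighbours in this order stood apart, with no overlap of the 3 controls, in 3 places, where Bcl11b exceeded Meis2, Foxp4 exceeded Foxp1 and Bcl11a exceeded Foxp2. The remaining neighbours overlapped. Among all genes tested, Bcl11b was at percentile 97.4 of the level per kb and Meis1 at percentile 59.8. In both mutants Meis2 took the first rank, at 3296 and 3239 per kb, and Foxp1 moved from rank 4 to rank 6. The order depends on the transcript assumed, since per kb of the longest transcript Meis2 led in controls at 5350.0.

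**Figure D2:**
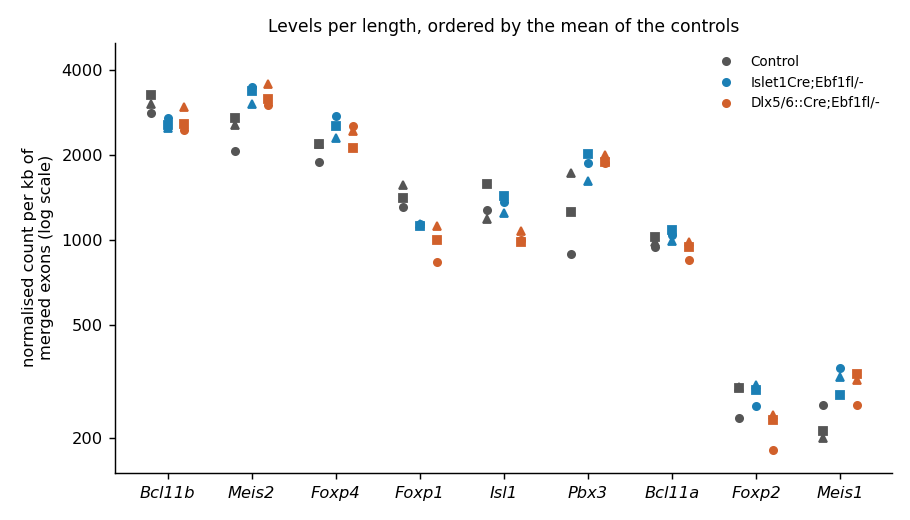
Normalised counts per kb of merged exons (vertical axis, log scale) for the 9 genes, ordered by the mean of the controls, with 1 symbol per embryo and the 3 genotypes side by side. Foxp2 and Meis1 lie below the other 7 genes in every embryo, and Meis2 leads in the mutants.

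The spread between controls differed among the genes. Bcl11a varied least, with a coefficient of variation of 4.1%, and Pbx3 most, at 32.2%, its highest control being 1.93 times its lowest. The other 7 lay between 7.14% and 15%. With 3 embryos against 3 the smallest two-sided p of an exact permutation test is 0.1, and the tests therefore come from edgeR's quasi-likelihood fit of all 9 libraries and all 16368 genes, with Benjamini-Hochberg adjustment. A gene was called at an adjusted p below 0.05.

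Among the 9 members, 0 were called in the Islet1Cre;Ebf1fl/- comparison, where 0.971% of all genes were, and 1 of 9, Foxp1, in the Dlx5/6::Cre;Ebf1fl/- comparison, against 2.39% of all genes. At an unadjusted p below 0.05 there were 6 of 9 in each comparison, against 7.93% and 15.5% of all genes. The median size of the log2 fold change was 0.27 over the members in the former comparison and 0.40 in the latter, against 0.11 and 0.15 over all genes tested. Of the 9 members, 5 did not overlap between the Islet1Cre;Ebf1fl/- embryos and the controls, against 15.1% of all genes, and 4 did not overlap between the Dlx5/6::Cre;Ebf1fl/- embryos and the controls, against 20.9%. Over both comparisons, which share the 3 controls, 2 of 9 (Foxp1 and Meis2) had every mutant embryo on 1 side of every control, against 7.7% of all genes. With both mutants tested together against the controls, 1 of 9 was called, again Foxp1, against 2.76% of all genes. The shares of all genes are over genes of every level. All members but Foxp2 and Meis1 were at percentile 89.2 or above of the level per kb in controls. The members were also chosen with earlier results of these data known. The shares therefore do not test whether the members differ as a set.

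**Figure D3:**
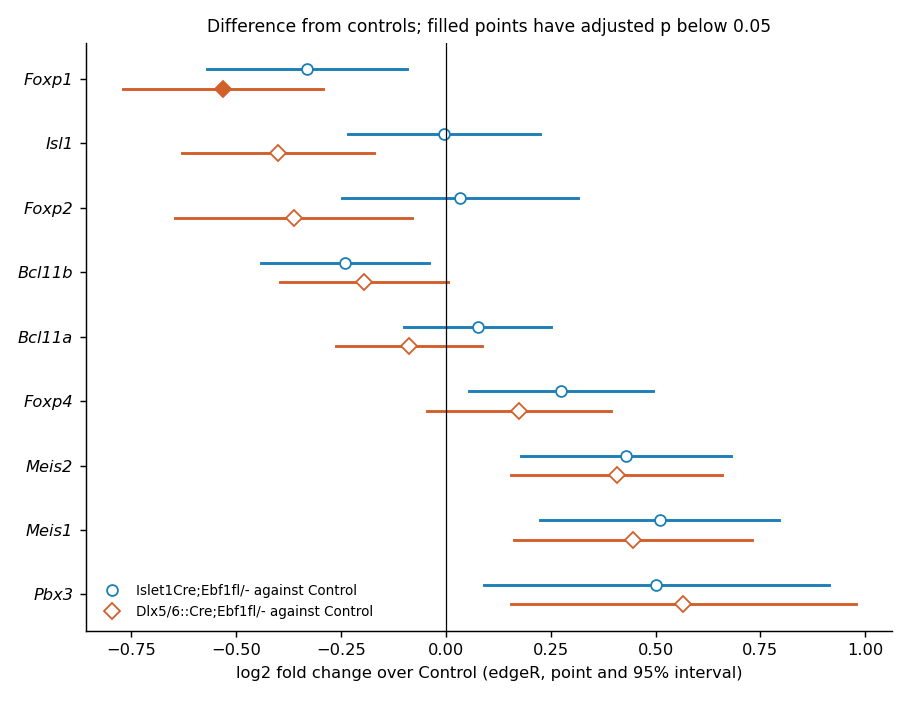
Log2 fold change over Control with its 95% interval (horizontal axis, edgeR) for each gene, in embryos labelled Islet1Cre;Ebf1fl/- (circles) and Dlx5/6::Cre;Ebf1fl/- (diamonds). The only filled point, with an adjusted p below 0.05, is that of Foxp1 in the Dlx5/6::Cre;Ebf1fl/- comparison, at -0.53.

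Foxp1 (ENSMUSG00000030067, chromosome 6, 98925338 to 99522721) was at 17975, 19407 and 21499 normalised counts in the controls. It was at 15717, 15435 and 15725 in the embryos labelled Islet1Cre;Ebf1fl/- and at 11495, 13794 and 15471 in the Dlx5/6::Cre;Ebf1fl/- embryos. The 6 mutant values all lay below the 3 control values, and the Islet1Cre;Ebf1fl/- embryos hardly varied among themselves. Foxp1 fell in the Dlx5/6::Cre;Ebf1fl/- comparison, with a log2 fold change of -0.53 ± 0.11 (SE), a difference of -30.8% from controls (95% interval -41.4% to -18.3%, adjusted p = 0.0305, edgeR). In the Islet1Cre;Ebf1fl/- comparison the log2 fold change was -0.33 ± 0.11 and did not pass the threshold (adjusted p = 0.303). The direct difference between the mutants was -0.20 ± 0.11 (adjusted p = 0.868), so a stronger reduction in either was not shown. Over both mutants the log2 fold change was -0.43 ± 0.09 (adjusted p = 0.0347).

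The Foxp1 call in the Dlx5/6::Cre;Ebf1fl/- comparison rested near the threshold. Without the library that stood apart it was kept, at -0.43 (adjusted p = 0.0319), and without replicate 3 of the same genotype at -0.64 (adjusted p = 0.0294). It was lost without control 1 (adjusted p = 0.0575), control 2 (0.0809), control 3 (0.134), Islet1Cre;Ebf1fl/- replicate 1 (0.0530), 2 (0.0510) or 3 (0.0571), or Dlx5/6::Cre;Ebf1fl/- replicate 2 (0.0863). Against control 3 alone, the control with the same prefix of the embryo code, the log2 fold change was -0.66, a value with no spread among controls behind it and from a library that held both Xist and Y-linked reads. Exons of Foxp1 overlap those of a protein-coding gene on the same strand, Gm20696, which itself held 471 to 1173 counts, and reads on shared exons may be missing from the count.

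Foxp2 (ENSMUSG00000029563, chromosome 6, 14901349 to 15441977), the forkhead gene that marks dSPN, was at 3834, 4907 and 4953 in controls. In the Islet1Cre;Ebf1fl/- embryos it was at 4234, 4801 and 5006, and in the Dlx5/6::Cre;Ebf1fl/- embryos at 2954, 3765 and 3932. The first of these groups overlapped the controls, while in the second 2 of 3 values lay below all controls. The log2 fold changes were 0.03 ± 0.13 (adjusted p = 0.999) and -0.36 ± 0.13 (adjusted p = 0.202), and neither passed. Without the Dlx5/6::Cre;Ebf1fl/- replicate 1 library the latter was -0.25 (adjusted p = 0.301).

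Foxp4 (ENSMUSG00000023991, chromosome 17, 47867133 to 47924645), the remaining Foxp gene of the nervous system, was at 9339, 10792 and 10772 in controls, at 13576, 12504 and 11349 in the Islet1Cre;Ebf1fl/- embryos and at 12528, 10402 and 11952 in the Dlx5/6::Cre;Ebf1fl/- embryos. All Islet1Cre;Ebf1fl/- values lay above the controls, whereas 1 Dlx5/6::Cre;Ebf1fl/- value lay among them. Log2 fold changes were 0.27 ± 0.10 (adjusted p = 0.403) and 0.17 ± 0.10 (adjusted p = 0.424). Thus the 3 Foxp genes had values of unlike sign in the Dlx5/6::Cre;Ebf1fl/- comparison, and of these only that of Foxp1 passed. Foxp3, the Foxp gene of regulatory T cells, was near the limit of counting, with means of 12.9, 13.1 and 11.0 normalised counts in the respective groups and a log2 fold change of -0.21 (adjusted p = 0.854) in the Dlx5/6::Cre;Ebf1fl/- comparison.

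Bcl11b (ENSMUSG00000048251, chromosome 12, 107910403 to 108003602), or Ctip2, was at 22950.4, 26468 and 24546 in controls. It was at 21869.5, 20663 and 20172 in the Islet1Cre;Ebf1fl/- embryos, all below the controls, and at 19852, 20852 and 23942 in the Dlx5/6::Cre;Ebf1fl/- embryos, which overlapped them. The log2 fold changes, -0.24 ± 0.09 (adjusted p = 0.450) and -0.19 ± 0.09 (adjusted p = 0.334), did not pass.

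Bcl11a (ENSMUSG00000000861, chromosome 11, 24078056 to 24174123), or Ctip1, was the member with the steadiest controls. Its values were 12439.9, 13505 and 13002 in controls, 13715, 14349 and 13059.7 in the Islet1Cre;Ebf1fl/- embryos and 11194.5, 12502 and 12971 in the Dlx5/6::Cre;Ebf1fl/- embryos. The log2 fold changes of 0.08 (interval -0.10 to 0.25 at an adjusted p of 0.995) and -0.09 (interval -0.26 to 0.09 at an adjusted p of 0.634) did not pass. Bcl11a lies 20.4 Mb and Meis1 25.6 Mb from Ebf1 on the same chromosome.

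Genes of known partners of the Ctip proteins were read against the 0.971% and 2.39% of all genes called in the 2 comparisons, shares at which lists of this length hold few or no calls. Of 3 COUP-TF genes, 0 were called in either comparison. The largest value was that of Nr2f2, with a log2 fold change of 0.99 (adjusted p = 0.241) in the Dlx5/6::Cre;Ebf1fl/- comparison, where replicate 1 was at 672.5 normalised counts against 329.6 and 176.1 in the other two embryos. Without that library the value was 0.35. Of 20 genes of the BAF chromatin remodelling complex, with which Bcl11 proteins associate, 0 were called, the largest value being 0.53 for Dpf3 (adjusted p = 0.306). Of 13 genes of the NuRD deacetylase complex, 0 were called, the largest value being 0.36 for Hdac1 (adjusted p = 0.454), which was 0.0087 without the same library.

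Isl1 (ENSMUSG00000042258, chromosome 13, 116298281 to 116309689) was at 5065, 6247 and 4713 in controls and at 5415, 5668 and 4927 in the Islet1Cre;Ebf1fl/- embryos. In the Dlx5/6::Cre;Ebf1fl/- embryos it was at 3979, 3908 and 4262, below every other embryo. In embryos labelled with the Islet1Cre allele the count differed from controls by -0.25% (95% interval -14.9% to 16.9%, adjusted p = 0.999), although a count over the gene does not tell its 2 alleles apart. In the Dlx5/6::Cre;Ebf1fl/- comparison the log2 fold change was -0.40 ± 0.10 and missed the threshold (adjusted p = 0.0817), while DESeq2's Wald test called it (adjusted p = 0.0188). Against control 3 alone it was -0.22, again from 1 control. Isl1 is also made by cholinergic interneurons, whose 6 markers, none at 0, summed to 1248 to 1886 in controls, 1666 to 1764 in the Islet1Cre;Ebf1fl/- libraries and 1045 to 1774 in the Dlx5/6::Cre;Ebf1fl/- libraries. Isl2, its close relative, was at 0.962 normalised counts or less in every embryo.

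The TALE members had higher means in the mutants. Meis2 (ENSMUSG00000027210, chromosome 2, 115863064 to 116065839) was at 24825, 32546 and 30870.1 in controls. It was at 41960.0, 40664 and 36468 in the Islet1Cre;Ebf1fl/- embryos and at 36160.1, 37943 and 42933 in the Dlx5/6::Cre;Ebf1fl/- embryos. Each of these 6 values lay above each control. The log2 fold changes were 0.43 ± 0.11, or 34.7% more than in controls (95% interval 13.2% to 60.3%, adjusted p = 0.150), and 0.41 ± 0.11, or 32.6% more (95% interval 11.5% to 57.7%, adjusted p = 0.105). Over both mutants the value was 0.42 ± 0.10 with an adjusted p of 0.0548, just short of the threshold.

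Meis1 (ENSMUSG00000020160, chromosome 11, 18879817 to 19018985) was the least abundant member in controls, at 2752, 2229 and 2107 in controls, 3714, 2973 and 3439.9 in the Islet1Cre;Ebf1fl/- embryos and 2746, 3543 and 3374 in the Dlx5/6::Cre;Ebf1fl/- embryos. The Islet1Cre;Ebf1fl/- values all lay above the controls, and in the other mutant only the library that stood apart fell below the highest control. Log2 fold changes were 0.51 ± 0.13 (adjusted p = 0.126) and 0.45 ± 0.13 (adjusted p = 0.116), and 0.48 ± 0.11 over both mutants (adjusted p = 0.0533). Without the Dlx5/6::Cre;Ebf1fl/- replicate 1 library the 3 comparisons called Meis1, at 0.51 (adjusted p = 0.0353), 0.55 (adjusted p = 0.0308) and 0.53 (adjusted p = 0.0113), and the test over both mutants also called Meis2 (adjusted p = 0.0250). DESeq2's Wald test called both genes in both comparisons, with adjusted p values of 0.0161 to 0.0349. By edgeR, Meis2 without control 1 was at 0.32 (adjusted p = 0.404) and 0.30 (adjusted p = 0.299) in the 2 comparisons. In the Islet1Cre;Ebf1fl/- comparison Meis1 was at 0.64 without control 1 (adjusted p = 0.0987). It was at 0.47 without control 2 (0.357) and at 0.44 without control 3 (0.4255). Against control 3 alone, the Dlx5/6::Cre;Ebf1fl/- values were 0.61 for Meis1 and 0.34 for Meis2, with no spread among controls behind them. Of the 75-base windows of Meis1 transcripts 16.1% also occur in another gene, the highest share among the members, against at most 2.03% for the others. Exons of Meis1 overlap those of Gm37818, annotated at the same locus and strand, which itself held 123 to 322 counts. Reads on shared exons may be missing from the count of Meis1. Whether the shared windows lie there was not tested.

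Pbx3 (ENSMUSG00000038718, chromosome 2, 34171457 to 34373142), a DNA-binding partner of Meis proteins, was at 5471, 7714 and 10564 in controls, at 11415, 12344 and 9913 in the Islet1Cre;Ebf1fl/- embryos and at 11422, 11523 and 12215.5 in the Dlx5/6::Cre;Ebf1fl/- embryos. The controls were spread widely, and control 3 lay above 1 of the Islet1Cre;Ebf1fl/- embryos. The log2 fold changes of 0.50 ± 0.19 (adjusted p = 0.431) and 0.57 ± 0.19 (adjusted p = 0.171) did not pass. They moved with single controls. Without control 3 they were 0.77 (adjusted p = 0.0736) and 0.83 (adjusted p = 0.0317), and without control 1 they were 0.30 (adjusted p = 0.784) and 0.36 (adjusted p = 0.382). DESeq2's Wald test called the latter comparison with all libraries in (adjusted p = 0.0469). Control 3 is the only control with the prefix of the Dlx5/6::Cre;Ebf1fl/- embryos, and against it alone their log2 fold change was 0.15, a value with no spread among controls behind it.

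Of 7 further TALE homeodomain genes reported here, 0 were called in either comparison, beside 0.971% and 2.39% of all genes. At an unadjusted p below 0.05 there were 0 and 1, against 7.93% and 15.5% of all genes. The median log2 fold change over these 7 was -0.02 in the Islet1Cre;Ebf1fl/- comparison and 0.07 in the Dlx5/6::Cre;Ebf1fl/- comparison, against -0.0016 and 0.0114 over all genes tested. The largest value was 0.74 ± 0.43 for Tgif1, a TALE repressor, in the Dlx5/6::Cre;Ebf1fl/- comparison (adjusted p = 0.436), with 83.1, 41.0 and 22.01 normalised counts in those embryos and 32.6, 21.2 and 32.7 in the controls. Without the Dlx5/6::Cre;Ebf1fl/- replicate 1 library it was 0.12.

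The mutants were next compared with each other. None of the 9 members was called, and 0.0% of all genes were (0 of 16368 by edgeR, with 844 at an unadjusted p below 0.05; DESeq2 called 18). Isl1, Foxp2 and Bcl11a, 3 of the 9, were lower in every Dlx5/6::Cre;Ebf1fl/- embryo than in every Islet1Cre;Ebf1fl/- embryo, while 5.39% of all genes were. For Isl1 the log2 difference was -0.40 ± 0.10 (unadjusted p = 0.00298, adjusted p = 0.868) and for Foxp2 -0.40 ± 0.13 (unadjusted p = 0.0106, adjusted p = 0.868). For Meis2 the interval of the difference was -0.27 to 0.23 and for Bcl11b -0.15 to 0.25. For Pbx3 it was -0.35 to 0.47, which leaves room for a difference in either direction.

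Ratios within an embryo do not depend on the scaling of its library, and 5 were fixed. The ratio of Foxp1 to Foxp2 was 4.69, 3.96 and 4.34 in controls, 3.71, 3.21 and 3.14 in the Islet1Cre;Ebf1fl/- embryos and 3.89, 3.66 and 3.94 in the Dlx5/6::Cre;Ebf1fl/- embryos. All mutant ratios lay below all control ratios, by 0.27 on the log2 scale over both mutants (exact two-sided permutation p = 0.0238, the smallest that 6 against 3 embryos can give, adjusted over 5 ratios 0.119). The ratio of Bcl11b to Bcl11a was 1.84, 1.96 and 1.89 in controls, 1.59, 1.44 and 1.54 in the Islet1Cre;Ebf1fl/- embryos and 1.77, 1.67 and 1.85 in the Dlx5/6::Cre;Ebf1fl/- embryos. It differed by -0.21 over both mutants (exact permutation p = 0.0476, adjusted 0.119), with the Islet1Cre;Ebf1fl/- embryos below all others. The ratio of Foxp1 to Bcl11b differed by -0.21 (exact permutation p = 0.0952, adjusted 0.159), and here it was the Dlx5/6::Cre;Ebf1fl/- embryos, at 0.58, 0.66 and 0.65, that lay below all others. The ratio of Meis2 to Meis1 differed by -0.06 (exact permutation p = 0.81, adjusted 0.929) and that of Isl1 to Foxp2 by -0.03 (exact permutation p = 0.929, adjusted 0.929). No ratio passed after adjustment, but a single ratio could not have, since the smallest possible p becomes 0.119 over 5 ratios. The adjusted values therefore do not decide whether a ratio changed.

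**Figure D4:**
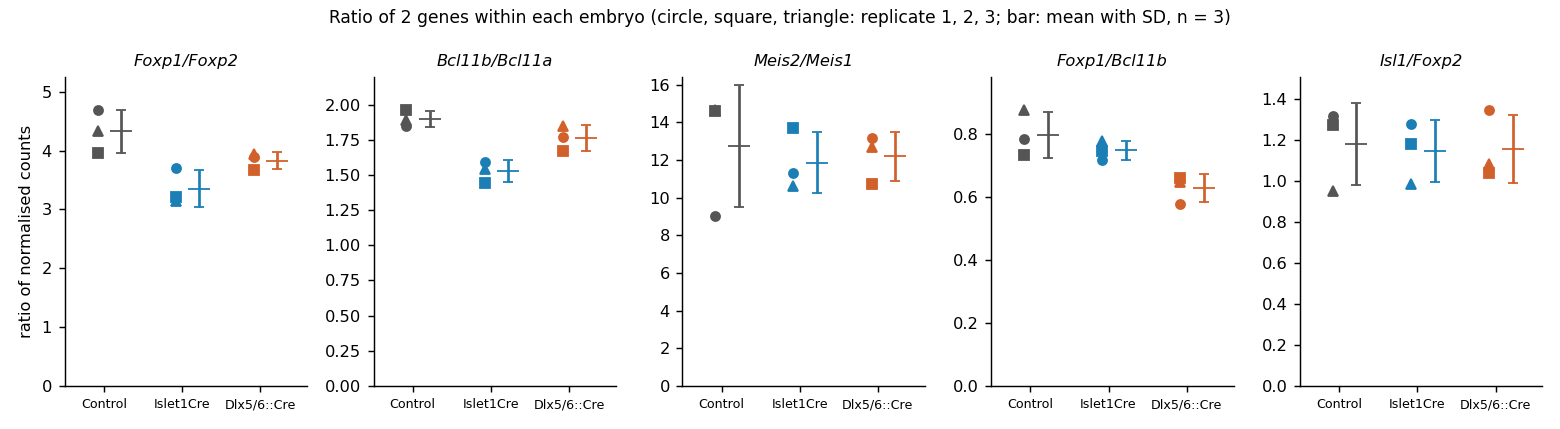
Ratio of the normalised counts of 2 genes within each embryo (vertical axis, from 0) by genotype, with symbols for replicates 1 to 3 and the mean with its SD (n = 3). All mutants lie below all controls for Foxp1 to Foxp2, and the groups overlap for Meis2 to Meis1 and Isl1 to Foxp2.

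For each member the 2 genes with the most similar course over the 9 embryos were sought among 8886 tested genes with a mean of at least 500 normalised counts, by the root mean square distance of log2 values centred on their mean. Nearest to Foxp1 were Lingo2, at a distance of 0.0681 where Foxp1 itself spread by 0.251, and Ppp1r16b, at 0.0745. Lingo2 was at 823.1, 977.5 and 970.6 normalised counts in controls and at 499.8 to 741.0 in the 6 mutants. These did not overlap, as its choice by likeness to Foxp1 makes likely. Nearest to Foxp2 were Ptpn5, the striatum-enriched tyrosine phosphatase STEP, and Dock9, with means of 5108, 5105 and 4260.0 for Ptpn5 in the respective groups. Hivep2 and Magi3 were nearest to Meis2, at 0.0527 and 0.0644 where Meis2 spread by 0.237. Hivep2, a zinc finger factor, had means of 1151, 1546 and 1532. The other pairs were Cacng2 and Ccp110 for Foxp4, Mlst8 and Lzts3 for Bcl11a, Tmem74b and Abr for Bcl11b, Rabgef1 and Snapc3 for Isl1, Tspan4 and Cib2 for Meis1, and Galnt17 and Slc8a1 for Pbx3. No pair of members was compared in this way, and with 9 embryos of 3 genotypes a like course is a description of these libraries.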

How the data were processed

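Striatal tissue of 9 E17.5 embryos was analysed, 3 per genotype as labelled. The authors deposited raw counts per Ensembl gene without normalisation. By the methods of the study, 75 bp reads of polyadenylated RNA were mapped with STAR 2.4.0k, alignments to more than 1 position were removed, which lowers genes with near-identical copies, and the rest were counted on Ensembl 81 genes (mm10) with HTSeq-count 0.5.3. The strand setting of the counting was not given in the sources used here. DESeq 1.8.3 served the authors for normalisation, and those values were not used here.

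Counts were tested with edgeR 4.0.16 in R 4.3.3, in 1 quasi-likelihood fit of 9 libraries in 3 groups, with TMM scaling, filterByExpr (minimum count of 10) and Benjamini-Hochberg adjustment over 16368 genes. Normalised counts were divided by DESeq2 1.42.0 size factors. Intervals are 95%, and SE is that of the log2 fold change. Positions and merged exons are from GENCODE M21. Each library is of a separate embryo according to the study. Replicate numbers in the titles do not come from stated pairs, and a block for them was an alternative. Others were DESeq2's Wald test, DESeq2 size factors, no or a stricter filter (mean of 100), only the samples of a comparison, the embryo code prefix and leaving out each embryo.

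All members were named. From each other list, genes called in either comparison with controls were named, otherwise the gene with the largest change. Marker lists entered by their sums and by called genes. Drd1, Tac1, Zfp503 and Rarb were named outside this rule. One gene of these lists is not reported here. Besides the lists given with values, markers of pallidal and MGE interneurons, thalamus, endothelium, microglia, glia, and blood with choroid plexus were summed. Of these genes and of the cholinergic, cortical and progenitor markers, 0 were called in either comparison. The members and all lists were chosen with earlier results of these data known. In a simulation of the Dlx5/6::Cre;Ebf1fl/- comparison over 16191 genes, 22 of 100 genes changed by 0.5 on the log2 scale and 96 of 100 changed by 1.5 were called, with 6 false among 124 calls. The changed genes were drawn at random, and the simulated libraries held no outlying library and no structure by prefix or sex. These shares are therefore not those to be had for the members in the real libraries.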

Additional observations from a re-analysis of the deposited data

Results flagged for a closer look

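The values of Bcl11a lay on opposite sides of the control mean in the mutants. Every embryo labelled Islet1Cre;Ebf1fl/- was above the control mean of 12982 normalised counts and every embryo labelled Dlx5/6::Cre;Ebf1fl/- below it, and the mean log2 values of the mutants differed by 0.167. Both groups overlapped the controls, however, and replicate 3 of each mutant, at 13059.7 and 12971, lay close to the control mean. In the direct test by edgeR the log2 difference was -0.16 ± 0.08 (95% interval -0.34 to 0.01, unadjusted p = 0.0641, adjusted p = 0.868), so the difference was not shown. Without Dlx5/6::Cre;Ebf1fl/- replicate 1 it was at its smallest, -0.11.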

How the results depend on the processing

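Members called changed with the processing. DESeq2's Wald test called 2 (Meis1, Meis2) in the Islet1Cre;Ebf1fl/- comparison, 5 (Foxp1, Isl1, Meis1, Meis2, Pbx3) in the Dlx5/6::Cre;Ebf1fl/- comparison and 4 over both mutants, among 394, 857 and 775 genes, with 18 genes between the mutants. Without a filter the members called were 1, 4 and 4, among 311 and 708 genes in the former comparisons and 13 between the mutants. A mean of 100 gave 2 members over both mutants. Only the samples of a comparison gave 0 members in the Dlx5/6::Cre;Ebf1fl/- comparison and 259, 181 and 2 genes in the pairwise comparisons. The prefix covariate gave 0 members there and 61, 32, 1 and 278 genes. With an embryo left out, members called ranged from 0 to 1, 0 to 2, 0 to 0 and 0 to 3, and genes called from 15 (without Islet1Cre;Ebf1fl/- replicate 2) to 397 (without Dlx5/6::Cre;Ebf1fl/- replicate 1), 143 to 613, 0 to 4 and 178 to 775. The cause was not tested.

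Same-numbered embryos did not deviate together (mean r = -0.0235, range -0.228 to 0.178, 2 of 9 pairs above 0.1). The replicate block called 2 members in the Dlx5/6::Cre;Ebf1fl/- comparison, Foxp1 and Foxp2 (adjusted p = 0.0429), and changed no other call of a member.

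Of 276 fold changes of the members and of Tgif1, Nr2f2, Dpf3, Hdac1 and Foxp3 under alternatives that kept all embryos, 250 kept direction and side of the threshold. The reversals were of values near 0 or between the mutants. Isl1 in the Islet1Cre;Ebf1fl/- comparison turned to 0.00017 without a filter, 0.0018 with the stricter one, 0.0029 with only its samples and 0.00062 with the replicate block. Between the mutants the prefix covariate gave 0.18 for Meis1 and -0.62 for Pbx3.

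With an embryo left out, ranges crossing 0 were -0.076 to 0.10 for Foxp2 and -0.0799 to 0.12 for Isl1 (Islet1Cre;Ebf1fl/- comparison), -0.48 to 0.11 for Foxp3 (Dlx5/6::Cre;Ebf1fl/- comparison), -0.047 to 0.10 for Bcl11b, -0.15 to 0.037 for Meis1, -0.11 to 0.027 for Meis2 and -0.015 to 0.14 for Pbx3 (between mutants), -0.034 to 0.023 for Bcl11a (both mutants), -0.29 to 0.061 for the ratio of Meis2 to Meis1 and -0.18 to 0.057 for that of Isl1 to Foxp2. The call of Foxp1 over both mutants was lost in 7 of 9 fits. Control 1 left out called Meis1 over both mutants (adjusted p = 0.0459), and control 3 left out called Pbx3 (adjusted p = 0.0219).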
